A study of Rattus norvegicus with 13 samples.

Results

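The genes described here encode the physins and gyrins, small membrane proteins of synaptic and other transport vesicles that cross the membrane several times. They were the synaptophysin relatives Synpr, Syp and Sypl1 and the synaptogyrins Syngr1, Syngr2 and Syngr3. They were found by symbol, 6 of the 14506 genes measured on a rat gene array of 29214 probe sets, and each had 1 probe set (several short probes read as 1 value) that carried its symbol alone. The family was selected on the measured diet difference of Synpr, known from these same arrays, and filled up with its relatives by name. That difference is therefore given as a description, without a test.

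The arrays measured RNA from the brain without the cerebellum of male rats of the inbred strain Fischer F344 at 15 months of age. In the maternal fructose group (6 arrays) the mothers had eaten a high fructose diet through gestation and lactation, starting on day 1 of gestation. In the maternal control group (7 arrays) they had eaten a control diet over that time. Offspring of both groups were weaned on day 20 and then ate chow. The labels name neither litters nor separate animals, so every p-value refers to the spread among these samples, which may be technical.

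Synaptophysin, the product of Syp, is an abundant protein of the synaptic vesicle membrane and binds the vesicle SNARE protein synaptobrevin. Synaptoporin, the product of Synpr, is its close relative and in the rodent brain is known from a narrower set of terminals, among them hippocampal mossy fibres and those of interneurons. Pantophysin, from Sypl1, and cellugyrin, from Syngr2, also occur on vesicles outside neurons, while the products of Syngr1 and Syngr3 are found on synaptic vesicles.

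Promoter sequence was at hand for Synpr, Syp and Syngr2 in a RefSeq table for the build GRCr8, which gives 250 bases before and 50 after 1 start per gene. The windows of Synpr and Syp are shown because the results set these close relatives against each other. Capitals mark the dinucleotide CG, and both sequences run 5′ to 3′ on the gene's own strand. The Synpr window is chr15:14182308-14182607 (minus strand) and the Syp window chrX:17536400-17536699 (minus strand).
Synpr: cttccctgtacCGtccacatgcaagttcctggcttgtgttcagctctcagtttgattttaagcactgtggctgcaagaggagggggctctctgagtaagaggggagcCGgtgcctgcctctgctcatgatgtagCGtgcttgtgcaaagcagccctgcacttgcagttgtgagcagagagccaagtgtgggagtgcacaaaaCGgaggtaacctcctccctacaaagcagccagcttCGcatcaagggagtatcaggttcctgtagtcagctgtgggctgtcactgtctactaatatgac
Syp: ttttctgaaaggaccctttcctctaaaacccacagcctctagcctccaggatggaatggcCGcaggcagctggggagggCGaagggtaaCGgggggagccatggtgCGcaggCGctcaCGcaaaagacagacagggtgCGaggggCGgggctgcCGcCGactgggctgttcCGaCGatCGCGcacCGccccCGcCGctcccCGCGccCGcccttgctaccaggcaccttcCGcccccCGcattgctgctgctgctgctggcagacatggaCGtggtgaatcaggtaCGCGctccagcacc
The Synpr window held 5 CG dinucleotides and the Syp window 25, where the median of 33469 such windows was 7. Of all windows, 38.0% had fewer than that of Synpr and 83.4% fewer than that of Syp. The Syngr2 window held 24. The hexamer GGGCGG, searched on both strands as GGGCGG or CCGCCC and itself containing CG, occurred 1 time in the first form and 3 times in the second in the Syp window and 0 times in either form in the Synpr window. It was found in 33.1% of all windows. Methylation and factor binding were not measured here, so these counts describe the letters alone.

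The arrays were close to each other, with correlations from 0.9852 to 0.9976 over the 15633 probe sets that had at least 1 gene. By median, markers of neurons, astrocytes and myelin were above 95.7%, 96.2% and 91.5% of probe sets with 1 gene in mean log2 signal. The brightest of each list were Map2 (12.15), Slc1a2 (12.89) and Mbp (11.73), and the dimmest Nefh (9.07), Aldh1l1 (8.21) and Opalin (9.19). The 8 cerebellar markers were above 28.1% by median. They ran from Gabra6 of granule cells at 5.64 to Neurod1 at 8.54. Control replicates 1 and 2 had the narrowest signal distributions. In means of regional marker lists 3 arrays were taken, after the data were seen, as standing apart from their groups. Control replicate 8 was 0.53 above its group in striatum markers, 0.50 above in thalamus markers and 0.73 below in cortex and hippocampus markers. Fructose replicate 3 was 0.37 above its group in striatum markers, and fructose replicate 4 was 0.74 above in dentate gyrus markers, of which 4 of 8 genes were measured. Control replicate 3, 0.395 above its group in dentate gyrus markers, and control replicate 5, 0.314 below in choroid plexus markers, were kept. Results are also given without the 3 arrays that stood apart.

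Synpr was lower in the fructose group by 0.29 ± 0.08 (SE) on the log2 scale, a fold of 1.22, while the other 5 genes differed by no more than 0.05 in either direction. Its log2 signal ran from 9.47 over a median of 9.63 to 9.88 in fructose samples and from 9.80 over 9.87 to 10.145 in control samples. The groups overlapped: 4 of 6 fructose arrays lay below the lowest control array, fructose replicates 7 and 8 lay among the controls, and 3 of 7 control arrays lay above the highest fructose array. The means were 9.67 ± 0.18 (SD, n = 6) in fructose and 9.96 ± 0.14 (SD, n = 7) in control samples, and all 6 fructose arrays were below the control mean. In bulk brain RNA, fewer cells that express a gene and less RNA per cell cannot be told apart.

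In the limma fit of fructose against control, 0 of 15633 probe sets had an adjusted p under 0.05 (0.0%), and 2.23% were at an unadjusted p under 0.05. None of the 6 genes had groups that did not overlap, a pattern seen in 0.0384% of all probe sets tested. The Synpr difference lay between -0.33 and -0.25 when single arrays were left out. It was -0.33 without control replicates 1 and 2, and -0.23 without the 3 arrays that stood apart in regional markers. The last setting leaves out the pair of fructose arrays with the lowest Synpr signal, replicates 3 (9.47) and 4 (9.52).

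Syp, the general marker of synaptic vesicles, ran from 12.10 over a median of 12.28 to 12.40 in fructose samples and from 12.13 over 12.22 to 12.38 in control samples. The ranges covered each other almost fully. Its means were 12.26 ± 0.10 (SD, n = 6) in fructose and 12.22 ± 0.09 (SD, n = 7) in control samples, and the difference of 0.04 had a 95% interval from -0.08 to 0.15. It turned sign with array weights (-0.0015) and without the 3 arrays that stood apart (-0.0068).

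Sypl1 ran from 9.24 over 9.27 to 9.31 in fructose samples and from 9.12 over 9.21 to 9.37 in control samples. All 6 fructose arrays lay above the control mean and inside the control range. The difference was 0.05, with a 95% interval from -0.05 to 0.15.

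Among the synaptogyrins, Syngr1 averaged 10.56 ± 0.03 (SD, n = 6) in fructose and 10.57 ± 0.06 (SD, n = 7) in control samples, a difference of -0.0044 (95% interval -0.09 to 0.08). Control replicate 8, at 10.45, was its lowest array. Syngr2 averaged 8.51 ± 0.06 (SD, n = 6) in fructose and 8.50 ± 0.10 (SD, n = 7) in control samples, a difference of 0.01 (95% interval -0.09 to 0.12). Syngr3, whose product is known to interact with the dopamine transporter, averaged 10.32 ± 0.20 (SD, n = 6) in fructose and 10.34 ± 0.10 (SD, n = 7) in control samples. In the fructose group its signal split into replicates 3 (10.62) and 4 (10.52) above 10.5 and the other 4 arrays at 10.24 or lower. Its difference was -0.02 (95% interval -0.19 to 0.15) and -0.13 without the 3 arrays that stood apart. For each of Syp, Sypl1 and the synaptogyrins the adjusted p from limma was 0.9998. The signs of Syngr1, Syngr2 and Syngr3 turned when single arrays were left out, that of Syngr1 also with arrays centred on their medians, and that of Syngr2 also without control replicates 1 and 2.

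**Figure D1:**
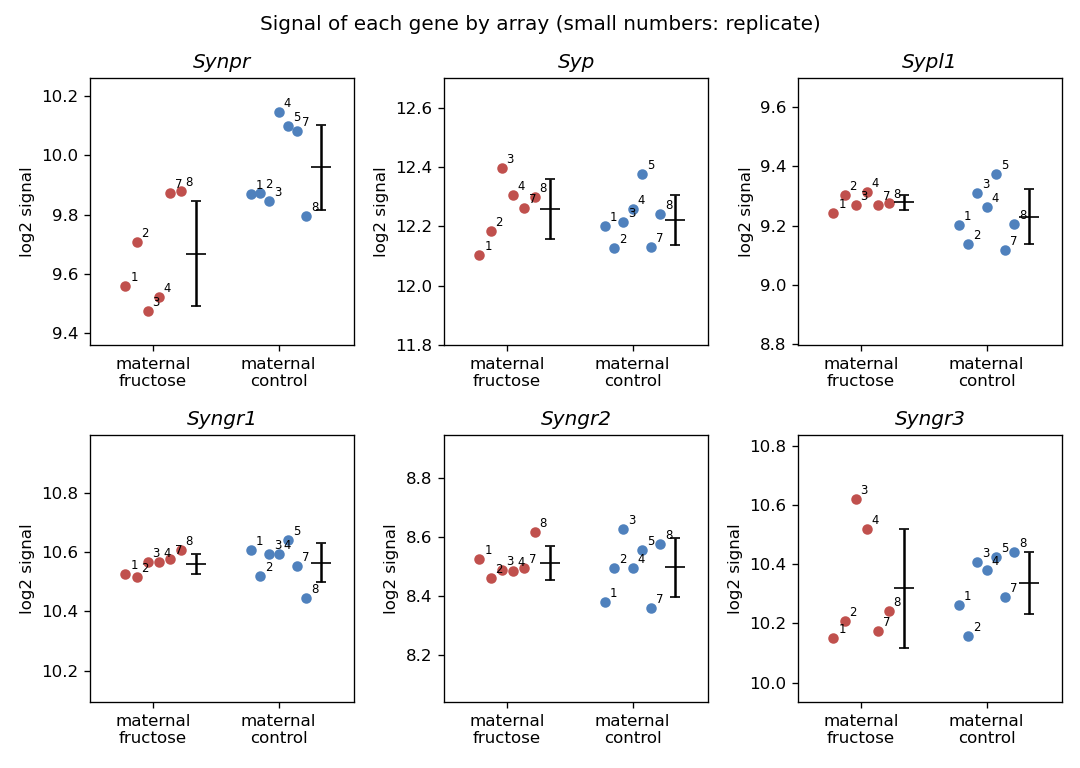
Log2 signal of each gene in the 6 maternal fructose and 7 maternal control arrays, 1 point per array with its replicate number, and the group mean with its SD in black. Every panel spans the same height on the log2 scale. Synpr averaged 9.67 in fructose and 9.96 in control samples, and the groups of the other 5 genes lay over each other.

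Within an array the signal of Synpr can be set against that of its relatives, which removes what all 6 share. The log2 signal of Synpr minus that of Syp averaged -2.59 ± 0.22 (SD, n = 6) in fructose and -2.26 ± 0.14 (SD, n = 7) in control samples. This scale compares arrays, and because probe sets differ in how they respond it does not rank the abundance of the genes. Against the mean of the other 5 genes, Synpr stood at -0.52 ± 0.21 in fructose and -0.21 ± 0.15 in control samples. That mean itself was 10.19 ± 0.06 in fructose and 10.17 ± 0.07 in control samples, a difference of 0.015. As these ratios contain the Synpr difference that led to the choice of genes, they carry no test.

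The nearest structural relatives of these proteins, the other physin and gyrin genes and the SCAMP family of vesicle carriers, were all measured. Of the 7 (Sypl2, Syngr4 and Scamp1 to Scamp5), 0 passed the test in either direction, 4 were above and 3 below 0, beside 54.1% of all probe sets above 0, and the median difference was 0.0074 beside 0.0056 over all probe sets tested. Scamp5, the SCAMP of neuronal vesicles, averaged 10.51 ± 0.04 (SD, n = 6) in fructose and 10.45 ± 0.05 (SD, n = 7) in control samples. Scamp1 differed by -0.01. Scamp3 had the largest difference in size, 0.13 (95% interval -0.01 to 0.27). Sypl2 differed by -0.00090 by its brighter probe set and by 0.14 by its other one.

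Genes of vesicle release and recycling had no calls either. Of 42 measured genes, 0 passed the adjusted threshold, and 25 were above and 17 below 0, with a median difference of 0.018. At an unadjusted p under 0.05 there was 1 gene above 0, beside 1.33% of all probe sets in that direction, and 0 below 0, beside 0.896%. That gene was Cplx1, which encodes a complexin that clamps and triggers fusion, at 10.84 ± 0.18 (SD, n = 6) in fructose and 10.62 ± 0.18 (SD, n = 7) in control samples. Its relative Cplx2 differed by 0.14. Vamp2, the gene of synaptobrevin that synaptophysin binds, averaged 11.52 ± 0.07 (SD, n = 6) in fructose and 11.42 ± 0.10 (SD, n = 7) in control samples, a difference of 0.10 (95% interval -0.01 to 0.21).

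In the other direction, Rab27b, a small GTPase of secretory vesicles, averaged 9.02 ± 0.09 (SD, n = 6) in fructose and 9.18 ± 0.21 (SD, n = 7) in control samples. Its highest array was in the control group, at 9.61. Sv2b differed by -0.09 and Atp6v0d1, a subunit of the proton pump that powers vesicle filling, by -0.05. Sv2a, the most widely expressed SV2 gene, differed by -0.0069. All 42 genes lay between -0.16 and 0.22. They were not chosen by their difference, while the -0.29 of Synpr led to the choice of the family, so its place outside their range follows from that choice.

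**Figure D2:**
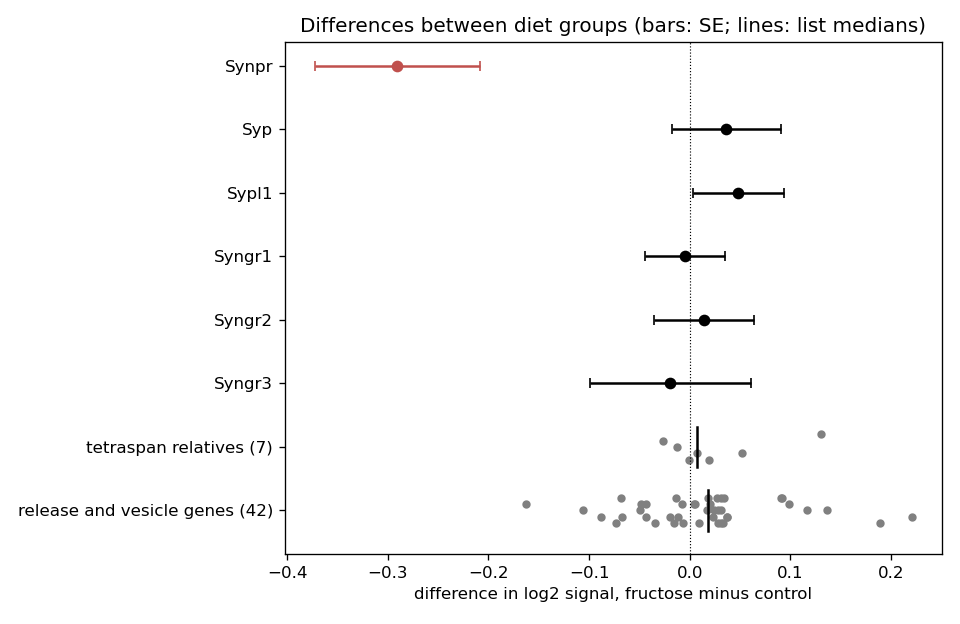
Difference in log2 signal between the groups, fructose minus control, for the 6 genes with its SE, for the 7 tetraspan relatives and for 42 genes of vesicle release and recycling. Grey points are single genes and black lines are list medians, 0.0074 and 0.018. Synpr, whose difference led to the choice of the 6 genes, lies at -0.29, and its distance from the others shown follows from that choice.

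The genes also differed in how much they varied between arrays of the same group. After group means were removed the SD of Synpr was 0.160, higher than that of 83.8% of the 500 probe sets nearest to it in mean signal, whose median SD was 0.104. Syngr3 had an SD of 0.155, above 79.8% of its neighbours. Without the 3 arrays that stood apart the SD of Syngr3 was 0.0845, above 34.8%, and that of Synpr 0.143, above 83.2%. Syp, at 0.0935, was in the middle of its neighbours (51.6%), and Sypl1 (0.0703, 14.8%) and Syngr2 (0.0826, 28.4%) were below. Syngr1 was the steadiest, with an SD of 0.0533 above only 4.0% of its neighbours. These ranks are descriptions and were not tested.

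No relation between Synpr and Syp was detected over all arrays. Over the 13 arrays with group means removed, Pearson's r was 0.0844 and Spearman's rho -0.0055 (permutation p = 0.799 and 0.993). The r was 0.655 without the 3 arrays that stood apart (permutation p = 0.062, adjusted p = 0.133). It thus depended on these arrays, but it did not pass without them either. With single arrays left out it was -0.086 to 0.35. In fructose replicates 3 and 4 Synpr lay 0.19 and 0.15 below its group mean, while Syp lay above its own.

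Among all 15 pairs of the 6 genes 0 passed after adjustment over the pairs, and 2 were at an unadjusted p under 0.05. These were Syp with Syngr3 (r = 0.764, rho = 0.753, permutation p = 0.00508 and 0.00766, adjusted p = 0.0576) and Syp with Sypl1 (r = 0.632, rho = 0.670, permutation p = 0.00768 and 0.0121, adjusted p = 0.0576). The first had r = 0.801 within fructose (n = 6, exact p = 0.0597) and 0.746 within control samples (n = 7, exact p = 0.0544), and 0.785 without the pair of arrays farthest from the median of Syp. It was 0.566 after renewed quantile normalization (permutation p = 0.0382, adjusted p = 0.321). The second had r = 0.272 within fructose and 0.894 within control samples, and 0.461 without the pair of arrays farthest from the median. The lowest r of a pair was that of Synpr with Syngr3, at -0.395 (rho = -0.511, permutation p = 0.239 and 0.12, adjusted p = 0.449).

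The marker list with which Synpr varied most closely was that of GABA interneurons, which are inhibitory local neurons. The RNA came from the brain without the cerebellum, so the list mean cannot be assigned to 1 region. Over the 13 arrays with group means removed, r was 0.845 and rho 0.852 (permutation p = 0.00056 and 0.00118). Adjusted over 96 relations, those of 6 genes with 16 lists, p was 0.0538, so it did not pass, and 0 of the 96 did. At an unadjusted permutation p under 0.05 there were 6 of the 96. The relation of Synpr with the interneuron list was seen within fructose (r = 0.951, n = 6, exact p = 0.00278) and within control samples (r = 0.731, n = 7, exact p = 0.0391). Without the pair of arrays farthest from the median of the list mean r was 0.856, without the 3 arrays that stood apart 0.718 (adjusted p = 0.392), and with single arrays left out 0.812 to 0.890. The value depended on how the list was summarised: with the list median in place of the mean, r was 0.661 (permutation p = 0.0212, adjusted p = 0.363). With each array centred on its median, r was 0.861 and the adjusted p = 0.00768.

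Fructose replicates 7 and 8 were high in both measures, 0.20 and 0.21 above their group mean in Synpr and 0.17 and 0.15 above in the list, and fructose replicate 3 was lowest in both, at -0.19 and -0.20. Among 15299 single-gene probe sets outside the list, Synpr ranked 52 from the top by its r with the list. By the same measure Syngr1 stood at 0.605, Sypl1 at 0.491, Syngr2 at 0.281, Syp at 0.173 and Syngr3 at -0.372, where the median over these probe sets was 0.0428. Within control samples r with the list was 0.80 for Syngr1, 0.764 for Sypl1 and 0.748 for Syp, beside 0.731 for Synpr. It was 0.384 for Syngr3 and 0.187 for Syngr2. Within fructose samples it was 0.951 for Synpr, 0.507 for Syngr2 and 0.299 for Syngr1, and negative for Sypl1 (-0.211), Syp (-0.356) and Syngr3 (-0.834). The distance of Synpr from Syngr1, Sypl1 and Syp thus came from the fructose samples.

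**Figure D3:**
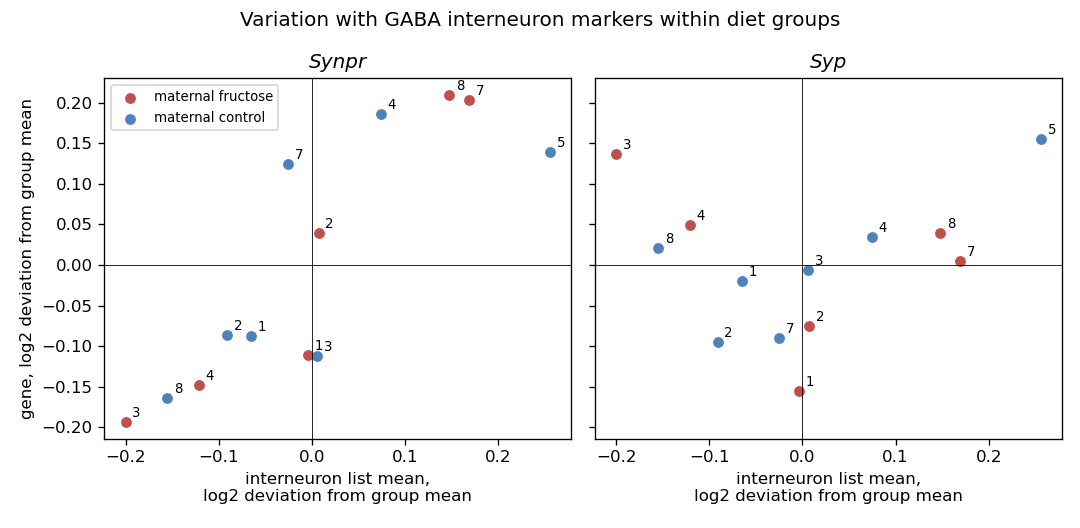
Deviation of Synpr and of Syp from the group mean against that of the mean of 11 GABA interneuron markers, all on the log2 scale, with 1 point per array and its replicate number. The Synpr points rise along the list (r = 0.845). Those of Syp are scattered over all arrays (r = 0.173), with r = 0.748 within control and -0.356 within fructose samples.

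Of the 11 genes of that list, named here after their values were seen, the highest r with Synpr was that of Dlx1 (0.714), a transcription factor gene of the interneuron lineage, before Vip (0.630), Lhx6 (0.621), Npy (0.594), Pvalb (0.586) and Sst (0.583). The lowest were Slc32a1, the vesicular GABA transporter gene (0.109), and Reln (-0.0051). Leaving out any 1 of the 11 gave r between 0.803 and 0.858. The list itself differed little between diets, at a mean of 9.37 in both groups, with 4 genes above and 7 below 0 and a median difference of -0.046. With the list mean as a covariate the Synpr difference was -0.28. Because the list mean hardly differed between diets (-0.0061), this covariate could move that difference little, however closely Synpr followed the list. The part of interneuron content was not tested by it.

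Markers of regions where synaptoporin is known gave smaller r with Synpr. Olfactory bulb markers gave r = -0.0137 (rho = -0.0549, permutation p = 0.966 and 0.875), and dentate gyrus markers r = -0.45 (rho = -0.379, permutation p = 0.172 and 0.234). Cortex and hippocampus markers gave r = 0.376 (rho = 0.258, permutation p = 0.191 and 0.368), which was -0.0607 without the pair of arrays farthest from the median. On the other side, oligodendrocyte markers gave r = -0.638 (rho = -0.615, permutation p = 0.0237 and 0.0266, adjusted p = 0.499), with -0.61 without the pair farthest from the median. This r was -0.882 within control (n = 7, exact p = 0.0333) and -0.370 within fructose samples (n = 6, exact p = 0.499). Striatum markers gave r = -0.530 (rho = -0.615, permutation p = 0.0523 and 0.0262, adjusted p = 0.499), which was -0.194 without the pair farthest from the median, fructose replicate 3 and control replicate 8. Between diet groups the median difference was -0.060 for the 7 olfactory bulb markers, with 6 below 0, and 0.11 for the 4 dentate gyrus markers, all above 0. The dentate gyrus list had means of 7.34 in fructose and 7.23 in control samples. It stood at 8.09 in fructose replicate 4 and at 7.26 or lower in the other fructose arrays. The median difference was 0.076 for the 8 oligodendrocyte markers, with 6 above 0, and -0.025 for the 10 striatum markers, with 4 above 0. Of 10 neuron markers 8 were above 0, with a median difference of 0.089, and 2 of them were above 0 at an unadjusted p under 0.05. Over all probe sets tested 54.1% were above 0, and 1.33% were so at an unadjusted p under 0.05. Other lists also leaned to 1 side: 7 of 8 endothelial and mural and 7 of 8 meningeal markers were above 0, and 6 of 7 choroid plexus markers below. None of these markers passed the adjusted threshold in limma. The part of regional or cellular makeup in the Synpr difference was not tested beyond the values given.

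The list closest to Syngr1 was that of cortex and hippocampus markers, of which 5 of 11 genes were measured. It gave r = 0.802 (rho = 0.665, permutation p = 0.00809 and 0.0278, adjusted p = 0.388). That relation was 0.967 within control (n = 7, exact p = 0.000992) and -0.0896 within fructose samples (n = 6, exact p = 0.885), and r was 0.518 without control replicate 8. With the list median in place of the mean it was 0.936 (adjusted p = 0.0106). Syngr2, a gene also active outside neurons, gave r = 0.597 with neuron markers (rho = 0.660, permutation p = 0.0336 and 0.0215, adjusted p = 0.499), which was 0.576 without the pair of arrays farthest from the median. This r was 0.815 within control (n = 7, exact p = 0.0329) and 0.262 within fructose samples (n = 6, exact p = 0.535). The strongest relation of Syngr3 by size was with striatum markers (r = 0.515, rho = 0.280, permutation p = 0.0516 and 0.344, adjusted p = 0.499), which was -0.0737 without the pair of arrays farthest from the median. Its smallest permutation p was with astrocyte markers (r = 0.459, rho = 0.456, permutation p = 0.0258 and 0.0959, adjusted p = 0.499). There r was 0.459 without the pair of arrays farthest from the median, 0.870 within control and 0.191 within fructose samples. For Syp the r largest in size was 0.466, with olfactory bulb markers (rho = 0.429, permutation p = 0.128 and 0.167, adjusted p = 0.684), which was 0.524 without the pair of arrays farthest from the median.

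**Figure D4:**
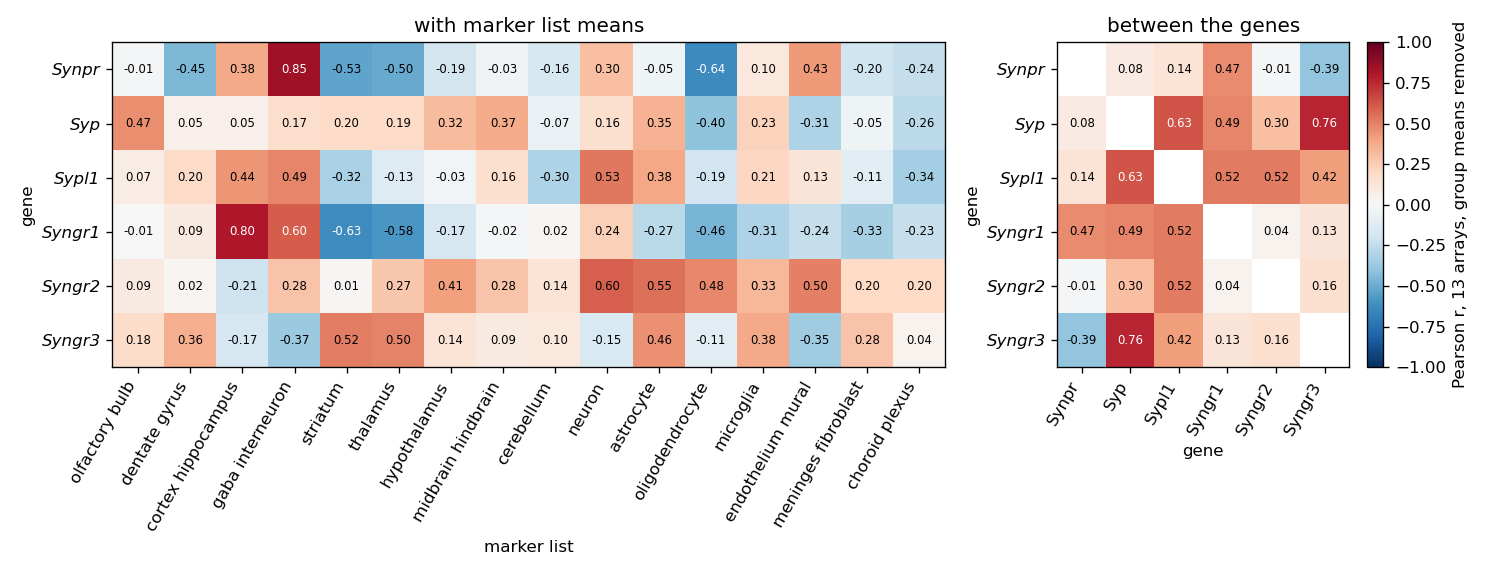
Pearson's r over 13 arrays with group means removed, between each gene and the mean of each of 16 marker lists (left) and between the genes (right). Red marks r above 0 and blue below 0. Synpr stands out with interneuron markers (0.845), Syngr1 with cortex and hippocampus markers (0.802) and Syp with Syngr3 (0.764).

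Across the 42 genes of vesicle release and recycling, the median r over the 13 arrays was 0.393 for Syngr1, 0.326 for Syp, 0.282 for Sypl1, 0.221 for Synpr, 0.157 for Syngr3 and -0.020 for Syngr2. Over all single-gene probe sets the medians ran from 0.0117 for Syngr3 to 0.096 for Sypl1. For Syngr1 the highest were Snap91 (0.856) and Synj1 (0.835), which act in recovering vesicle membrane. For Synpr they were Syt4 (0.632), Syn3 (0.630) and Syn1 (0.627). The lowest for both was Slc17a6, the vesicular glutamate transporter gene of thalamus and brainstem, at -0.649 for Synpr and -0.553 for Syngr1. Slc17a6 had median signals of 6.51 in fructose and 6.70 in control samples, with highest arrays at 8.04 and 9.15. Its r without such high arrays was not computed. All r values with the 42 genes share the same arrays and are given without a test.

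Over 7738 probe sets at or above the median signal, the genes most like Synpr by r with group means removed were Nuak1 (0.824), a kinase gene, Adgrl2 (0.821), which encodes the adhesion receptor latrophilin 2, Fbxo41 and Rgs8 (0.805 each), Fabp3 (0.801), Lhfpl6 (0.797), Spryd3 (0.794), Slc41a2 (0.791), Katnal1 (0.790) and Pacc1 (0.785). None of these was lower in fructose samples by more than 0.067, and Adgrl2 stood at 0.25 ± 0.17 (SE) and Spryd3 at 0.17 ± 0.07 (SE). The closest to Syp were Pla2g12a (0.922), Slc39a6 (0.894) and Uba1 (0.893), the main ubiquitin activating enzyme. For Sypl1 they were Snx15 (0.946), Rars1 (0.937) and Fto (0.922), for Syngr1 Jkamp (0.887), Snap91 (0.856) and Taf2 (0.851), for Syngr2 Rhog (0.930), Gsn (0.922) and Pcnp (0.877), and for Syngr3 Hnrnpc (0.926), Elmod2 (0.919) and Dok4 (0.904). With 13 arrays and 7738 probe sets, high values arise for many genes, so the lists describe likeness in these samples alone.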

How the data were processed

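Log2 signals from 13 arrays of rat brain were used as the authors deposited them. Per the submitters' processing notes they were made with RMA and R 3.0.1. The sources used here give neither the scanner settings nor the annotation build. There were no detection calls, so distance from background is unknown for dim signals. The number of arrays limits precision. Genes came from the platform annotation, in which 15310 probe sets had 1 gene symbol, 323 several and 13581 none, and all 6 genes described were found in a current rat gene table.

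Fructose was compared with control by limma 3.58.1 in R 4.3.3 over the 15633 probe sets with a gene, without a filter, with Benjamini-Hochberg adjustment and a threshold of 0.05. For lists, the probe set with the highest mean stood for each gene. Relations between arrays used deviations from group means, with 2-sided p-values from 100000 permutations within groups, or all 720 or 5040 orders within 1 group (exact). Each family was adjusted by Benjamini-Hochberg. Scripts were tested on simulated data. The genes, lists and tests were chosen with earlier results of these data known. The text names all probe sets of the 6 genes, Scamp1, Scamp5, Vamp2 and Sv2a, the 3 release genes with the smallest p in each direction, and the 10 genes most like Synpr and 3 most like each other gene. Others named, such as Scamp3 and single interneuron genes, were chosen after their values were seen.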

Additional observations from a re-analysis of the deposited data

Results flagged for a closer look

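In 62 sets of values (genes or list means within 1 group) a single array was looked for that lay far from the rest, by Dixon's criterion, which by chance flags about 1 set in 20. It found 6, all in means of marker lists and none in the physin and gyrin genes. The dentate gyrus list was at 8.09 in fructose replicate 4, with the next array at 7.26. The striatum list was at 8.71 in fructose replicate 3 and at 8.85 in control replicate 8, where the next arrays stood at 8.32 and 8.40. In control replicate 8 the thalamus list was at 8.61, with the next array at 8.11. The neuron list was lowest in fructose replicate 4, at 10.78 with the next at 10.91, and the choroid plexus list in control replicate 5, at 6.17 with the next at 6.45.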

How the results depend on the processing

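The count of probe sets past the adjusted threshold was 0 under all 24 alternatives. At an unadjusted p under 0.05 it was 348, against 759 with array weights, 717 without control replicates 1 and 2, 547 without the 3 arrays that stood apart in regional markers and 527 without control replicate 8. The Synpr difference stayed below 0 under all 23 alternatives, from -0.34 with array weights to -0.23. That difference led to the choice of the family, and the alternatives reuse the same arrays. Its kept sign is therefore no independent support. Without 1 array each, differences ran from -0.024 to 0.0083 for Syngr1, -0.0091 to 0.035 for Syngr2 and -0.080 to 0.014 for Syngr3. Turned signs otherwise were 0.0016 for Syngr1 with arrays centred on their medians and 0.0083 with the replicate block, -0.011 for Syngr2 without control replicates 1 and 2, and -0.0015 and -0.0068 for Syp with array weights and without the 3 arrays.

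Of the 96 relations with lists, 0 to 1 passed without 1 array each, and 1 passed after each array was centred on its median (Synpr with interneuron markers, r = 0.861) and 1 with list medians (Syngr1 with cortex and hippocampus markers). The interneuron relation of Synpr ran from 0.812 to 0.890 without 1 array each and passed without control replicate 3, 4 or 7. It was lowest with group means kept in, at 0.62 (adjusted p = 0.573), and next lowest with list medians, at 0.661 (adjusted p = 0.363). Of the 15 pairs of genes, 0 to 3 passed without 1 array each, 2 with arrays centred on their medians and 2 without the 3 arrays. The r of Syp with Syngr3 was 0.566 after renewed quantile normalization and 0.654 with cyclic loess. The r of Synpr with Syp was -0.00045 without control replicates 1 and 2, -0.085 with group means kept in, and -0.086 to 0.35 without 1 array each. The cause of these changes was not tested. The settings without the 3 arrays, with the interneuron covariate and with list genes left out were chosen after seeing the data. Each gene had 1 probe set, so no other could be tried.

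Both groups share 6 replicate numbers. Same-numbered arrays had correlations of their deviations from -0.335 to 0.187, 1 over 0.1, and 0 correlated best with their own number. The main fits therefore did not pair the samples. What the numbers mark is not known, and a small shared effect could be missed with 6 numbers. With the replicate block 0 probe sets passed, 310 were at an unadjusted p under 0.05, the Synpr difference was -0.27 and its relation with interneuron markers 0.889 (permutation p = 0.0139, adjusted p = 0.333). The r of Syp with Syngr3 was then 0.448 (permutation p = 0.403, adjusted p = 0.755).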
